A study of Mus musculus with 23 samples.

Results

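The mast cell genes described here were taken as 6 listed symbols, Cpa3, Cma1, Mcpt4, Tpsb2, Kit and Ms4a2, looked up among the Ensembl identifiers of a gene count table from mouse endometrium. The table held 5 of the 6, out of 18682 features: Cpa3 (ENSMUSG00000001865), Cma1 (ENSMUSG00000022225), Mcpt4 (ENSMUSG00000061068), Tpsb2 (ENSMUSG00000033825) and Kit (ENSMUSG00000005672). All 5 passed the low-count filter that left 17708 features for testing. Ms4a2, the beta chain of the high-affinity IgE receptor, was not analysed here.

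Mast cells are tissue-resident immune cells of the bone marrow lineage that depend on stem cell factor, the ligand of the receptor tyrosine kinase Kit. Mouse mast cells of connective tissue store large amounts of a few proteases in their granules: carboxypeptidase A3 (Cpa3), the chymases Cma1 and Mcpt4, and the tryptase Tpsb2. In the mouse uterus these cells are known to lie mainly in the muscle wall and its connective tissue rather than in the endometrial lining, and Kit is also made by other cells, among them interstitial cells of smooth muscle, innate lymphoid cells and melanocytes.

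Each of the 23 libraries came from 1 uterine horn of a female C57BL/6 mouse and held RNA of its endometrium, which had been squeezed out of the muscle wall with forceps. The groups were 6 HG+ORG horns, injected with a hydrogel carrying human endometrial organoids, 6 HG horns, injected with the hydrogel alone, 5 PBS horns, injected with saline, and 6 SHAM horns. The horns of the HG+ORG, HG and PBS groups had been damaged with 70° ethanol 4 days before the injection, and tissue was taken 2 weeks after it. The sources used here do not give the treatment of the SHAM horns, the ages of the mice or which horns shared a mouse, so p-values measure only the spread between these horns. If human cells of the organoids were left in the tissue, no step that parts their reads from mouse reads is named in those sources.

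Total counts ran from 7920918 in SHAM replicate 4 to 14902952 in PBS replicate 7, with a median of 12701407. HG+ORG replicate 18 stood apart from the other horns, with 8110 reads of the Fc receptor chain Fcer1g and 22693 of the granule proteoglycan core Srgn, each the highest of the 23 horns, and the fewest reads of the epithelial gene Epcam, 1128, against up to 27938 elsewhere. The estrogen receptor Esr1 was read in all horns, from 113 reads in that library to 6172. Within groups, the only pairs compared, SHAM replicates 5 and 6 were the most alike libraries. Their chi-square was 2.76 per degree of freedom, over features above a minimum read count in the pair, against 16.5 for the next pair. The value of 2.76 is above sampling noise, for which it would be near 1, and both libraries were counted as separate samples. Levels are raw reads or CPM, reads per 1000000 after the trimmed mean of M-values (TMM) scaling.

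The promoter letters of the members are shown because these genes were examined for sharing a pattern over horns. RefSeq promoters of build GRCm38.p6 were at hand for 4 of the 5 members in the table, and Tpsb2 is named only. Each line gives the 250 bases before the gene's start, 5′ to 3′ on the gene's strand. Capitals mark the core motif recognised by GATA factors, which include the mast cell regulator Gata2. It reads GATAA on the gene's strand or, where it lies on the other strand, TTATC as printed. Capitals also mark the letters of the TATA box, searched on the gene's strand as TATAAA.
Cpa3: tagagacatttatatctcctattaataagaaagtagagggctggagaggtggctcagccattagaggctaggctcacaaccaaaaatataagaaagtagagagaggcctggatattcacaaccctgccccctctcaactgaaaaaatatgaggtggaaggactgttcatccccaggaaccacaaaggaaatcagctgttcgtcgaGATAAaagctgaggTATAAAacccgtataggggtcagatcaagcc
Cma1: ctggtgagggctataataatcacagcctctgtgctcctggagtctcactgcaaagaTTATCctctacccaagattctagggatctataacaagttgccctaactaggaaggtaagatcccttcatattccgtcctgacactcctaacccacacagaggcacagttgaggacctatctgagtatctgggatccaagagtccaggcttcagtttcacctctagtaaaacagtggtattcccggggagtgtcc
Mcpt4: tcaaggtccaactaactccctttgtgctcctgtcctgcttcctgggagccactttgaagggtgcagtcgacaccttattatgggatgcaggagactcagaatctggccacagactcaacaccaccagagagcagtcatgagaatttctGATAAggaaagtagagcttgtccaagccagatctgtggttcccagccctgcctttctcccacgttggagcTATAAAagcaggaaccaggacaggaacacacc
Kit: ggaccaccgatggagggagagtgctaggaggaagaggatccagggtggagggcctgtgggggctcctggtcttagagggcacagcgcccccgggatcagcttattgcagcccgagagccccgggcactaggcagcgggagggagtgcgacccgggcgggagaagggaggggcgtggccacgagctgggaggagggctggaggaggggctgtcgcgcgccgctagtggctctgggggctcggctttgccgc
The stretches are chr3:20242182-20242431 (minus strand) for Cpa3, chr14:55944676-55944925 (minus) for Cma1, chr14:56062311-56062560 (minus) for Mcpt4 and chr5:75574737-75574986 (plus) for Kit. GATAA began 45 bases before the start of Cpa3 and 102 bases before that of Mcpt4, and it lay on the other strand from -194 to -190 in Cma1. The TATA box letters lay from -31 to -26 in Cpa3 and from -32 to -27 in Mcpt4, and did not overlap the GATA motif. Kit held neither motif in this window, and 70.8% of its bases were G or C, against 44.4% in Cpa3, 48.0% in Cma1, 51.2% in Mcpt4 and a median of 52.0% over the promoters of 27025 genes. Both E-box spellings searched on both strands, CACGTG as the first of them and as the second of them CATGTG, were in none of the 4. Over the 27025 promoters of the same length, the GATA motif was found on either strand in 23.0%, the TATA box letters on the gene's strand in 8.12%, the first E-box in 6.05% and the second in 12.2%. These letter matches describe the windows and show no binding.

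The 4 protease genes were rare transcripts, and most of their reads came from a few horns. Cpa3, Cma1, Mcpt4 and Tpsb2 together had 573 reads over the 23 horns, and 470 of them, 82%, came from 6 horns. Those were HG+ORG replicate 21 with 72 reads, HG replicates 12, 13, 16 and 17 with 89, 91, 65 and 55 reads, and PBS replicate 7 with 98 reads. The other 17 horns had 19 reads or fewer of the 4 genes summed. On the CPM scale the lowest sum of the 6 horns was 4.43 and the highest of the other 17 was 1.30. So 1 of 6 HG+ORG horns, 4 of 6 HG horns, 1 of 5 PBS horns and no SHAM horn stood in the high set. This set was read off the data, and is given as a description.

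Counting error was small beside that gap. In PBS replicate 7 the 98 reads were 6.58 per 1000000 reads of the library's total (exact Clopper-Pearson 95% interval 5.34 to 8.01), while PBS replicate 10 had 4 reads, 0.350 per 1000000 (0.0954 to 0.896). Of the low HG horns, replicate 14 had 2 reads, 0.160 per 1000000 (0.0193 to 0.577), and replicate 15 had 6 reads, 0.529 per 1000000 (0.194 to 1.15). No read of any of the 4 genes was counted in HG+ORG replicate 22, PBS replicates 8 and 9 and SHAM replicate 1, which at a floor of 3 reads allows up to 0.251, 0.211, 0.239 and 0.236 per 1000000. These intervals and floors cover counting error only, since the reads carry no molecular identifiers.

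**Figure D1:**
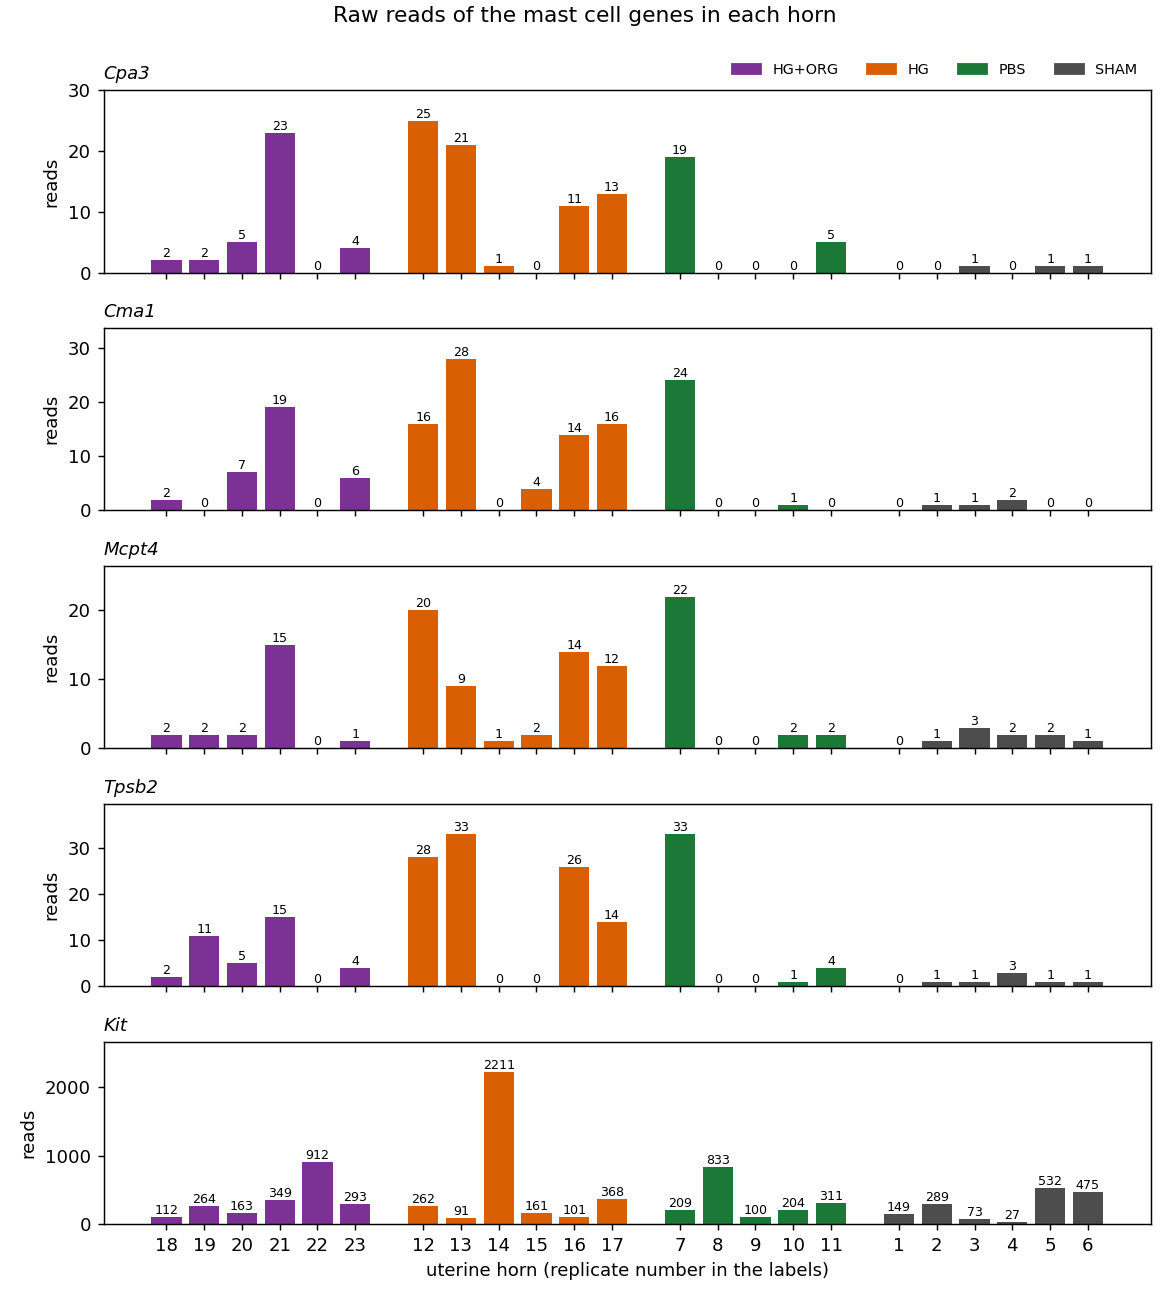
Raw reads (vertical axis, linear, its own scale in each panel) of the 5 mast cell genes in each of the 23 horns, 1 bar per horn with its read count above it, grouped as HG+ORG, HG, PBS and SHAM. The 4 proteases are high in the same 6 horns, with 9 to 33 reads each there, whereas Kit is highest in HG replicate 14 with 2211 reads.

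Cpa3, which trims peptides in the granule, had 0 to 23 reads in HG+ORG horns (median 3), 0 to 25 in HG horns (median 12), 19, 0, 0, 0 and 5 in the PBS horns of replicates 7 to 11, and 0 to 1 in SHAM horns (median 0.5). Its mean level was 0.591 ± 0.957 CPM in HG+ORG (SD, n = 6), 0.978 ± 0.794 in HG (n = 6), 0.309 ± 0.518 in PBS (n = 5) and 0.0399 ± 0.0450 in SHAM (n = 6). The ranges of all 4 groups overlapped, since each group held at least 1 horn with 0 reads. All 6 SHAM horns had at most 1 read.

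Cma1, the chymase nearest to human chymase by descent, had 0 to 19 reads in HG+ORG horns (median 4), 0 to 28 in HG horns (median 15), 24, 0, 0, 1 and 0 in the PBS horns, and 0 to 2 in SHAM horns (median 0.5). Mean levels were 0.539 ± 0.786, 1.08 ± 0.761, 0.319 ± 0.667 and 0.0690 ± 0.0967 CPM in HG+ORG, HG, PBS and SHAM (SD, n = 6, 6, 5 and 6). In PBS the mean was carried by replicate 7, the others having at most 1 read. Of the distinct stretches of 75 bases, the read length, in the Cma1 transcript, 1.67% also occur in the gene Gm48934, so that few of its reads could have been shared.

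Mcpt4, a chymase that cuts matrix proteins, had 0 to 15 reads in HG+ORG horns (median 2), 1 to 20 in HG horns (median 10.5), 22, 0, 0, 2 and 2 in the PBS horns, and 0 to 3 in SHAM horns (median 1.5). It averaged 0.376 ± 0.630, 0.844 ± 0.682, 0.339 ± 0.589 and 0.137 ± 0.114 CPM in HG+ORG, HG, PBS and SHAM (SD, n as above). Per kilobase of transcript it had the highest SHAM level of the 4, 0.124 CPM, and it was read in 5 of 6 SHAM horns. HG and SHAM horns overlapped. Its transcript shares 2.51% of its 75-base stretches with Cma2.

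Tpsb2, a tryptase that forms tetramers held together by heparin, had 0 to 15 reads in HG+ORG horns (median 4.5), 0 to 33 in HG horns (median 20), 33, 0, 0, 1 and 4 in the PBS horns, and 0 to 3 in SHAM horns (median 1). Its means were 0.556 ± 0.599 CPM in HG+ORG, 1.45 ± 1.28 in HG, 0.489 ± 0.895 in PBS and 0.113 ± 0.130 in SHAM (SD, n as above). Per kilobase it was the most abundant of the 4 in HG and PBS, at 1.12 and 0.379 CPM. The 6 HG horns were split, with 14 to 33 reads in replicates 12, 13, 16 and 17 and none in replicates 14 and 15.

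The 4 proteases were high together. For each of them the 6 horns with the highest CPM were the same 6 horns. Since that set was taken from the sum of these 4 genes, each gene helped to define it, and this is a description only. The gap was narrow for Tpsb2, with 1.13 CPM in HG replicate 17 of the set and 0.821 in HG+ORG replicate 19 outside it. Within the 6 horns, the genes' shares of the summed protease reads were alike but not fixed. Cpa3 made up 31.9% of the sum in HG+ORG replicate 21 and 16.9% in HG replicate 16. Tpsb2 ran the other way, at 20.8% in HG+ORG replicate 21 (exact 95% interval 12.2 to 32.0%) and 40.0% in HG replicate 16 (28.0 to 52.9%). Mcpt4 was 9.89% in HG replicate 13 (4.62 to 17.9%) and 20.8 to 22.5% in the other 5 horns. The intervals of each gene overlapped between these horns.

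Kit was a far more abundant transcript and was spread over all groups. It had 112 to 912 reads in HG+ORG horns (median 278.5), 91 to 2211 in HG horns (median 211.5), 209, 833, 100, 204 and 311 in the PBS horns, and 27 to 532 in SHAM horns (median 219). The mean was 28.5 ± 21.4 CPM in HG+ORG (SD, n = 6), 40.0 ± 58.6 in HG (n = 6), 23.3 ± 19.0 in PBS (n = 5) and 18.7 ± 14.0 in SHAM (n = 6). All 4 ranges overlapped widely, and the HG mean rested on replicate 14, since the other 5 HG horns had 368 reads or fewer. Per kilobase of transcript, Kit averaged 5.44, 7.63, 4.45 and 3.57 CPM in HG+ORG, HG, PBS and SHAM, against 0.431, 1.12, 0.379 and 0.0877 CPM per kilobase for Tpsb2.

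Kit was highest in mostly other horns than the proteases. Of its 6 highest horns HG+ORG replicate 21, which had the highest protease CPM, was in the protease set, and the other 5 were HG replicate 14, HG+ORG replicate 22, PBS replicate 8 and SHAM replicates 5 and 6. In the 3 horns with the most Kit, with 2211, 912 and 833 reads, the 4 proteases had 2, 0 and 0 reads. HG replicate 13, with 91 protease reads, had the fewest Kit reads of its group, 91.

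**Figure D2:**
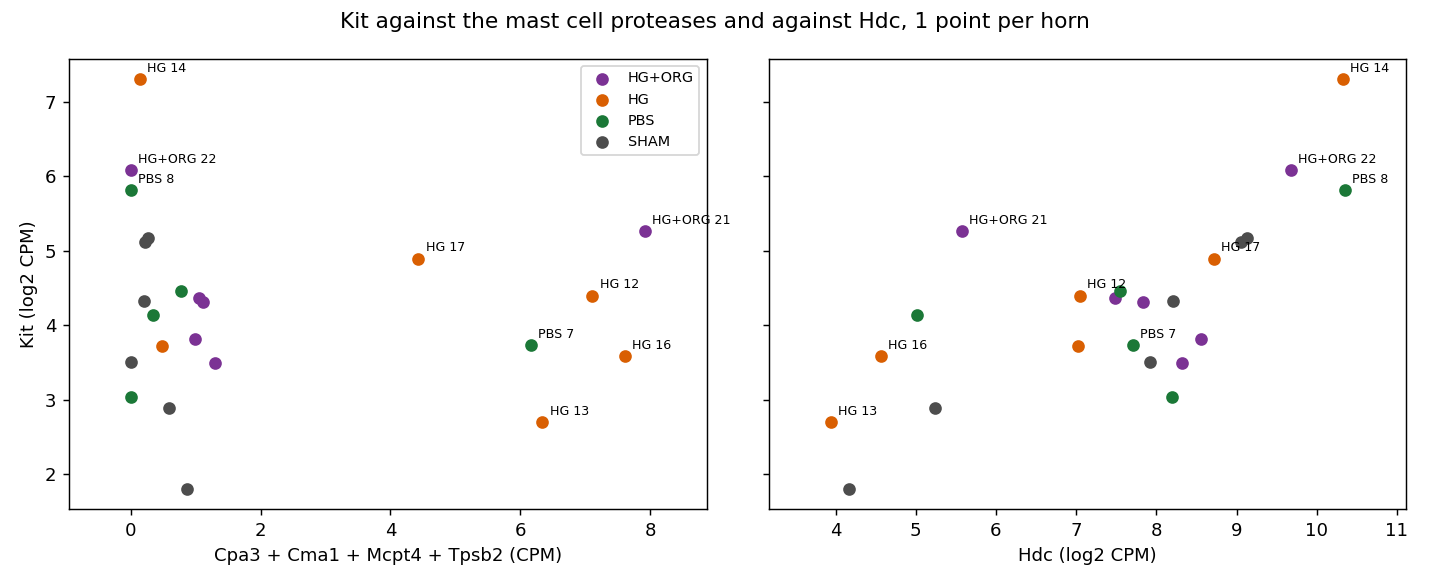
Kit (vertical axes, log2 CPM) against the summed CPM of Cpa3, Cma1, Mcpt4 and Tpsb2 (left) and against the histamine-synthesis gene Hdc (right, log2 CPM), 1 point per horn, coloured by group. HG replicate 14, HG+ORG replicate 22 and PBS replicate 8 lie highest in Kit with 0 to 2 protease reads, and these 3 horns also have the most Hdc reads, 17862, 11058 and 19358.

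The first comparisons ask whether the mast cell genes differed between the treated horns and SHAM. The 4 proteases averaged higher than SHAM in every treated group, but none of the 5 genes passed the test across all features. Fitted folds of HG against SHAM, on the log2 scale with standard errors, were 4.29 ± 1.32 for Cpa3, 4.02 ± 1.35 for Cma1, 3.72 ± 1.25 for Tpsb2, 2.62 ± 1.07 for Mcpt4 and 1.09 ± 0.73 for Kit. The adjusted p in edgeR's quasi-likelihood test with Benjamini-Hochberg adjustment was 0.249 for Cpa3, 0.265 for Cma1 and Tpsb2, 0.348 for Mcpt4 and 0.611 for Kit. Of the 6 HG horns, 5 lay above the highest SHAM horn in Cma1, 4 in Cpa3, Mcpt4 and Tpsb2, and 1 in Kit. By reads alone, Cpa3 had 71 reads over the HG horns and 3 over the SHAM horns, a depth-scaled ratio of 23.8 with a counting interval of 7.82 to 118 that leaves out the spread between horns. Myh11, a smooth muscle gene, was also added as a covariate in the fit. The HG folds were then 3.41 for Cpa3, 2.64 for Cma1, 2.58 for Tpsb2, 1.46 for Mcpt4 and 1.59 for Kit. Their edgeR adjusted p-values ran from 0.691 to 0.775. In the main fit, without this covariate, the 9 smooth muscle markers, Myh11 among them, had a median log2 fold of 4.07 in HG against SHAM. In bulk RNA, fewer cells of a type and less RNA per cell cannot be told apart.

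At an adjusted p under 0.05 this fit called 0% of 17708 features in HG against SHAM, and 0% in each of the other 5 comparisons. The unadjusted p was under 0.05, with a higher level in HG, for 4 of the 5 members (Cpa3 0.00376, Cma1 0.00688, Tpsb2 0.00706 and Mcpt4 0.0232) and for 9.15% of all features. Genes with so few reads entered the fit through the horns in which they were high, so that count is no evidence on the members. DESeq2, which called 281 features in this comparison, gave adjusted p-values of 0.0638 for Cpa3, 0.0949 for Tpsb2, 0.129 for Cma1, 0.220 for Mcpt4 and 0.511 for Kit. The folds from limma were 2.82 for Cpa3, 3.01 for Cma1, 2.14 for Tpsb2, 2.03 for Mcpt4 and 0.54 for Kit, with adjusted p-values of 0.42 or more.

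In HG+ORG against SHAM the log2 folds were 3.52 ± 1.35 for Cpa3 (edgeR adjusted p 0.362), 2.98 ± 1.38 for Cma1 (0.482), 2.33 ± 1.28 for Tpsb2 (0.580), 1.39 ± 1.13 for Mcpt4 (0.736) and 0.60 ± 0.72 for Kit (0.838). Unadjusted, Cpa3 and Cma1 were under 0.05, beside 8.09% of all features that were higher at that level. With limma they were 1.95 for Cpa3, 1.55 for Cma1, 1.52 for Tpsb2 and 0.42 for Mcpt4. Without HG+ORG replicate 21 the edgeR folds of Cpa3, Cma1 and Tpsb2 were 2.08, 1.84 and 1.67. Without HG+ORG replicate 18, the library that stood apart, the folds of the 5 genes were 3.66, 3.11, 2.46, 1.45 and 0.75 in the same order as above.

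In PBS against SHAM the log2 folds were 2.73 ± 1.41 for Cpa3, 2.36 ± 1.43 for Cma1, 2.23 ± 1.30 for Tpsb2, 1.40 ± 1.13 for Mcpt4 and 0.32 ± 0.75 for Kit, with an edgeR adjusted p of 1 for each. None was under 0.05 unadjusted, where 1.52% of all features were higher. The protease folds rested largely on PBS replicate 7, while Kit was 0.46 without that horn and -0.31 without PBS replicate 8. With limma the folds of Cpa3, Cma1, Tpsb2 and Mcpt4 were 0.85, 0.36, 0.54 and 0.17. Without PBS replicate 7 the edgeR folds were 1.02 for Cpa3, -1.20 for Cma1, -0.09 for Tpsb2 and -0.67 for Mcpt4.

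**Figure D3:**
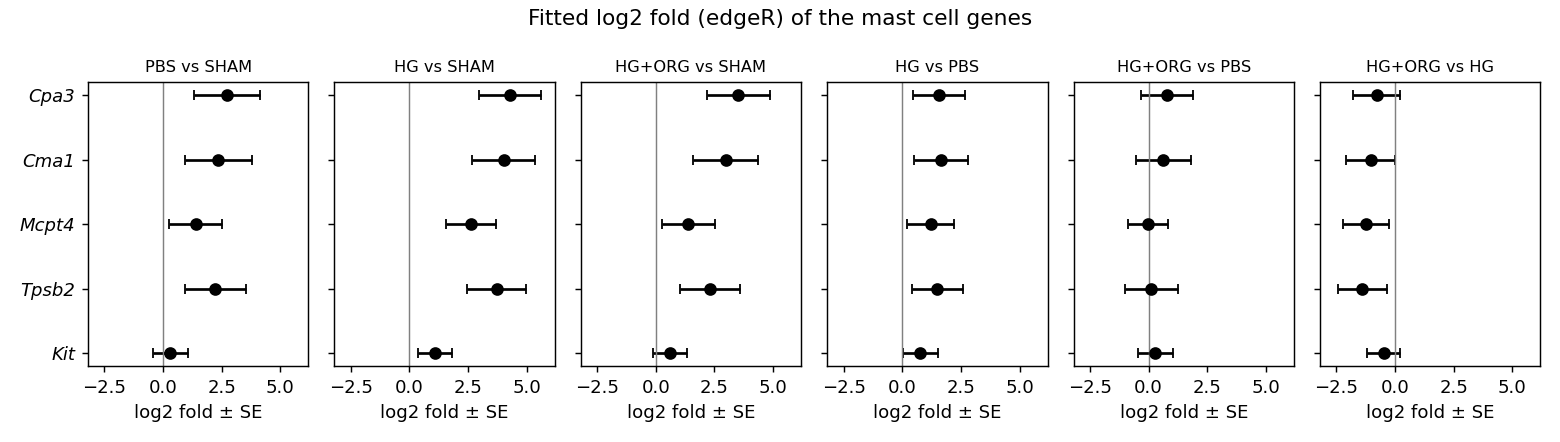
Fitted log2 folds from edgeR (points) with standard errors (bars) for the 5 mast cell genes in the 6 comparisons, positive where the first-named group is higher. The 3 comparisons with SHAM hold positive folds for all 5 genes, from 0.32 to 4.29, and HG+ORG against HG holds negative folds only, from -0.49 to -1.39, and no gene passed the adjusted threshold in any of the 6.

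The remaining comparisons ask whether the hydrogel or its organoids changed these genes among the damaged horns. HG against PBS gave log2 folds of 1.57 ± 1.09 for Cpa3, 1.66 ± 1.14 for Cma1, 1.5 ± 1.10 for Tpsb2, 1.22 ± 1.00 for Mcpt4 and 0.78 ± 0.76 for Kit, each with an edgeR adjusted p of 0.991. None was under 0.05 unadjusted, where 2.38% of all features were higher. The 4 proteases were 3.27 to 5.21 log2 units higher in HG without PBS replicate 7, at an adjusted p of 0.973. HG+ORG against PBS gave 0.79 ± 1.11, 0.62 ± 1.17, 0.11 ± 1.13, -0.01 ± 0.85 and 0.29 ± 0.75 for the same genes, with adjusted p-values from 0.957 to 0.999, and again none was under 0.05 unadjusted, beside 4.86% of features that were higher. The proteases ran from 2.05 to 4.18 without PBS replicate 7, and Cpa3, Cma1 and Tpsb2 from -0.65 to -0.52 without HG+ORG replicate 21. In both comparisons the groups overlapped in every gene. Comparisons with PBS share the PBS horns, as those with SHAM share the SHAM horns.

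HG+ORG against HG gave log2 folds of -0.78 ± 1.00 for Cpa3, -1.04 ± 1.06 for Cma1, -1.39 ± 1.05 for Tpsb2, -1.23 ± 0.97 for Mcpt4 and -0.49 ± 0.72 for Kit (edgeR adjusted p 0.785 to 0.931). No member was under 0.05 unadjusted, where 4.63% of features were lower. With Myh11 as a covariate in the fit, Cpa3 was 0.12, Cma1 0.43, Mcpt4 -0.03, Tpsb2 -0.09 and Kit -1.25. Without HG+ORG replicate 21, Cpa3, Cma1 and Tpsb2 were -2.23, -2.20 and -2.07. Kit turned to 0.80 without HG replicate 14.

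Myh11, the smooth muscle myosin heavy chain, served as the measure of muscle in the pressed-out tissue. It had 6 to 682 reads in HG+ORG horns (median 70), 135 to 5723 in HG horns (median 1151), 1336, 7, 12, 3115 and 111 in the PBS horns, and 45 to 165 in SHAM horns (median 116). Its mean level was 13.4 ± 17.6, 184 ± 251, 72.1 ± 115 and 9.06 ± 3.93 CPM in HG+ORG, HG, PBS and SHAM (SD, n = 6, 6, 5 and 6). The protease sum was 2.06 ± 2.91, 4.35 ± 3.31, 1.46 ± 2.65 and 0.359 ± 0.313 CPM in the same groups. HG had the highest mean in both. SHAM had the lowest mean Myh11 on this scale, but on the log2 CPM scale it averaged 3.11 and HG+ORG 2.31.

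HG replicates 16, 17 and 13 and PBS replicate 7 were high in both, with a Myh11 of 9.39, 7.85, 6.78 and 6.40 log2 CPM. PBS replicate 10 had the second highest Myh11, 8.06 log2 CPM, with 4 protease reads, and HG replicate 15 had 5.89 with 6. HG replicate 12 and HG+ORG replicate 21 had 89 and 72 protease reads at a Myh11 of 3.45 and 4.12 log2 CPM. These last values lie near the middle of the 23 horns. The 5 horns with the least Myh11, HG+ORG replicates 19, 22 and 23 and PBS replicates 8 and 9, had 0 to 15 protease reads. HG+ORG replicates 19 and 23 had 15 each, and the other horns of these 5 had 0. The SHAM horns, all with more Myh11 than these, had at most 7 protease reads.

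In a model with group terms, the edgeR slope on Myh11, in log2 units per log2 unit, was 0.42 ± 0.18 for Cma1, 0.40 ± 0.15 for Mcpt4, 0.35 ± 0.18 for Tpsb2, 0.31 ± 0.17 for Cpa3 and -0.22 ± 0.11 for Kit (SE). None passed, with adjusted p-values of 0.243, 0.218, 0.331, 0.381 and 0.321 in that order. The same fit called 0.779% of 17707 features as higher with Myh11 and 0.00565% as lower, and the higher ones held 7 of 8 smooth muscle markers. Without HG replicate 12 the slopes of Cpa3 and Tpsb2 were 0.55 and 0.57, without PBS replicate 7 they were 0.20 and 0.22, and that of Kit was -0.14 without HG replicate 14. Without 1 horn the lowest adjusted p of a member was 0.0871, for Mcpt4. Without PBS replicate 10 and HG replicate 12 together, left out after the data had been seen because they lay off the relation, the slope of Mcpt4 was 0.84 with an edgeR adjusted p of 0.01. The count of called features, 139 in both directions, was 864 without HG+ORG replicate 20, 401 without HG replicate 14 and 65 to 77 without PBS replicate 8, 9 or 10. For scale, the slope of the actin Acta2 was 0.95 with an adjusted p of 4.06e-05, and that of the calponin Cnn1 was 0.94 with 4.44e-06. Unadjusted, Cma1 (0.0253) and Mcpt4 (0.0166) were under 0.05, beside 10.2% of all features that were higher. A test of whether the slope differed between groups gave an adjusted p of 1 for each member and called 0% of features, with 4.99% under 0.05 unadjusted.

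Over all 23 horns and with no group terms, the log2 CPM of each protease correlated with that of Myh11. Pearson's r was 0.64 for Mcpt4 (Spearman's rho 0.70, permutation p 0.00107 and 0.00032), 0.58 for Cma1 (rho 0.63, 0.00404 and 0.00175), 0.50 for Tpsb2 (rho 0.46, 0.0156 and 0.0291) and 0.47 for Cpa3 (rho 0.45, 0.0255 and 0.0341). Adjusted over the 5 members, p for r was 0.00535, 0.0101, 0.026 and 0.0319, and p for rho was 0.0016, 0.00438, 0.0426 and 0.0426. Without HG replicate 16 and PBS replicate 10, the farthest from the median of Myh11, r was 0.63, 0.61, 0.49 and 0.52 in the same order, and the adjusted p for rho of Tpsb2 was 0.0615. The group means of Myh11 and of the proteases both enter these values. The proteases fell in the same set of 6 high and 17 low horns, so the 4 correlations are not separate results. The edgeR slope without group terms, adjusted over all features, passed for none of the members, while that fit called 572 features. Its adjusted p was 0.0582 for Mcpt4, 0.125 for Cma1, 0.142 for Tpsb2 and 0.259 for Cpa3. Within groups of 6 horns, over 15 relations, r of the 4 proteases lay between 0.46 and 0.57 in HG+ORG, 0.24 and 0.49 in HG and -0.20 and 0.73 in SHAM. None of these had an exact permutation p under 0.133, with n = 6. For Kit, r over all 23 horns was -0.22 (rho -0.22, permutation p 0.329 and 0.324), and -0.19 without the same 2 horns.

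**Figure D4:**
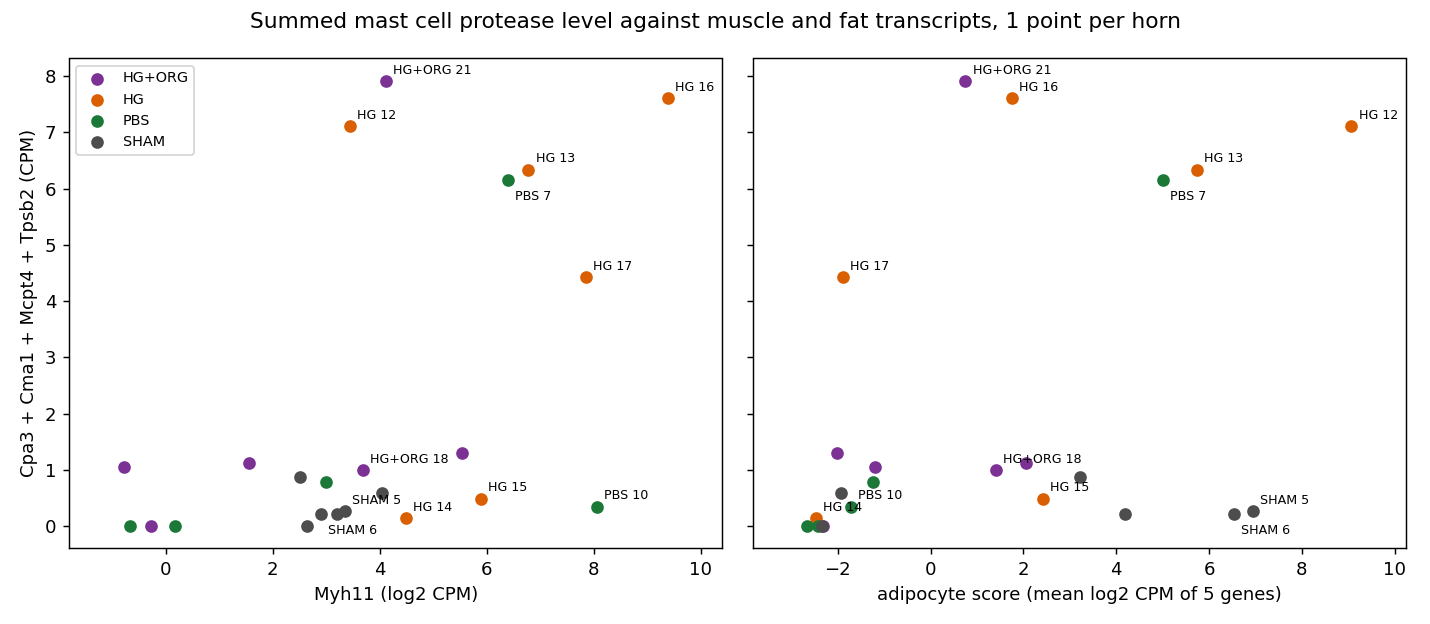
Summed CPM of Cpa3, Cma1, Mcpt4 and Tpsb2 (vertical axes) against Myh11 in log2 CPM (left) and against the mean log2 CPM of 5 adipocyte genes (right), 1 point per horn, coloured by group. On the left PBS replicate 10 lies low at a Myh11 of 8.06 while HG replicate 12 lies high at 3.45, and on the right SHAM replicates 5 and 6 lie low at adipocyte scores of 6.95 and 6.53 while HG replicate 12 lies high at 9.07.

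Fat transcripts were high in some of the same horns. The mean log2 CPM of 5 adipocyte genes was 9.07 in HG replicate 12, 5.74 in HG replicate 13 and 5.00 in PBS replicate 7, all in the high protease set. It was also 6.95 and 6.53 in SHAM replicates 5 and 6, which had 4 and 3 protease reads, and -1.89 in HG replicate 17, which had 55. The slope on this score, a measure added after the data had been seen, was 0.33 ± 0.12 for Tpsb2 and 0.28 ± 0.11 for Cpa3, with edgeR adjusted p-values of 0.852 and 1, and 0.469% of features passed. With the score as a further covariate, the slopes on Myh11 were 0.37 for Cpa3, 0.49 for Cma1, 0.5 for Mcpt4, 0.43 for Tpsb2 and -0.2 for Kit. Their edgeR adjusted p-values ran from 0.0821 for Mcpt4 to 0.405 for Kit. The part of fat in the protease reads of HG replicate 12 was not tested.

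Other genes known from mast cells ranged from few reads to many. The list held 23 genes, of which 15 were in the table and 14 were tested. With edgeR 0 of them passed in any of the 6 comparisons. Il1rl1, the receptor of the alarmin Il33, had 0 to 68 reads, Ltc4s, which makes leukotrienes, 1 to 102, and Alox5, which acts before it, 0 to 87. Hdc, which makes histamine, ranged from 145 reads in SHAM replicate 4 to 19358 in PBS replicate 8, a horn with no protease read. Gata2, a transcription factor of mast cells that the uterine lining also makes, peaked in the same horn at 9131 reads, as did the surface enzyme Enpp3 at 22026. Fcer1g and Srgn were highest in HG+ORG replicate 18, where the proteases had 8 reads in all. In HG against SHAM the median log2 fold of the 14 genes was 0.08, with 7 above 0, and that of all features was 0.

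Genes that tell mast cells from their neighbours were few. The mucosal mast cell proteases Mcpt1, Mcpt2 and Mcpt9 and the basophil genes Mcpt8 and Prss34 were not analysed here. Of 7 eosinophil genes 3 were tested, 0 passed in any comparison, and all 3 had positive folds in HG against SHAM, with 1.41 ± 0.93 for the eotaxin receptor Ccr3, 1.18 ± 1.32 for Ear2 and 0.50 ± 0.99 for Siglecf (edgeR adjusted p 0.611, 0.783 and 0.883).

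Of 11 genes for mast cell growth and attraction, 9 were in the table and 8 were tested, and 0 passed in any comparison. All 8 had positive folds in HG against SHAM, with a median of 1.62, where the median of all features was 0. In HG+ORG against SHAM 7 of the 8 were positive, with a higher median of 1.9. In PBS against SHAM 7 were positive, with a median of 0.41. The chemokine Cxcl12 had a median of 1002 reads in HG horns and 91 in SHAM horns (log2 fold 2.94 ± 1.02, edgeR adjusted p 0.266), and the eotaxin Ccl11 188 and 23.5 (2.88 ± 1.43, 0.459). The slopes of Cxcl12 and Ccl11 on Myh11 were 0.54 ± 0.16 and 0.78 ± 0.23, with adjusted p-values of 0.116 and 0.111. Kitl, the gene of the Kit ligand, had a log2 fold of 0.41 ± 0.48 in HG against SHAM (0.791), and Il33, an alarmin that activates mast cells, one of 0.12 ± 0.54 (0.956).

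Receptors and targets of mast cell mediators numbered 9, of which 7 were tested with 0 passing in any comparison. Cysltr1, a receptor for the leukotrienes that mast cells release, was 2.22 ± 0.73 in HG against SHAM (edgeR adjusted p 0.265), with median reads of 35 and 9.5. It was much the same in HG+ORG against SHAM, 2.16 ± 0.73 (0.274), and was highest in HG+ORG replicate 18 with 85 reads. In HG against SHAM the histamine receptor Hrh1 was 0.41 ± 0.71 (0.864), and F2rl1, the receptor that tryptase cleaves, was -0.40 ± 0.42 (0.770). Ptger3, a prostaglandin receptor, was -3.54 ± 0.99 in HG+ORG against HG (0.270), and 804 of its reads were in HG replicate 12. Among 5 tested genes of other cells that make Kit, 0 passed, and the pacemaker-cell chloride channel Ano1 was highest, at 987 reads, in HG replicate 14, the horn with the most Kit.

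The genes whose levels ran most like the members were found by Pearson's r over the 23 horns, among 15999 genes with a mean of at least 1 CPM, as a description with no test. For the mean of the 5 members these were Slc26a10 (0.81), H2-Ob (0.76), Otud1 (0.76), Ccn1 (0.75), Ccn3 (0.75), Gem (0.74), Vegfd (0.74), Crim1 (0.73), Lrrc32 (0.73) and Adamts1 (0.72). With the line on Myh11 taken out, 5 of the 10 stayed among the nearest 10, led by Slc26a10 (0.75), and Mgl2 (0.65) and the chemokine Cxcl13 (0.65) joined them.

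The same measure was taken for Kit and for the proteases alone, after the data had been seen. Nearest to the mean of the 4 proteases were again Slc26a10 (0.85), Ccn1 (0.78) and Otud1 (0.75), with Lyve1 (0.75), a marker of lymphatic vessels and some macrophages, Vegfd (0.74) and Gata6 (0.74). Kit had other neighbours, Plekha1 (0.91), Galnt18 (0.89), Syn2 (0.88), Wfdc3 (0.87) and Trpm3 (0.87). Hdc had an r of 0.71 with Kit over the same horns, and one of -0.5 with the mean of the 4 proteases.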

How the data were processed

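Endometrial RNA of 23 uterine horns was measured by sequencing of stranded poly(A) libraries, with single-end reads of 75 bases, per the labels' protocols. The deposited table held raw counts of reads per gene. The submitters' processing notes name HISAT2 2.2.1, featureCounts 2.0.3, Trimmomatic 0.39, SAMtools 1.21, MultiQC 1.27.1, FastQC 0.11.9, DESeq2 1.42.1 and R 4.3.1, on mouse build GRCm39, with settings, annotation release and strand setting not given in the sources used here. Each feature in the table had at least 10 counts in at least 3 libraries. Of the identifiers 18341 matched a symbol and 341 did not. Groups came from the library titles.

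From these counts, edgeR 4.0.16 in R 4.3.3 was run with TMM factors, filterByExpr by group, which removed 974 features, and 1 quasi-likelihood fit over the 4 groups, with Benjamini-Hochberg adjustment at 0.05 over all 17708 features. Standard errors were derived from the size of the log2 fold divided by the root of the F statistic. The slope on Myh11 was fitted with group terms, and a fit with a slope for each group tested their difference. Log2 CPM used a prior count of 2. Correlations used exact permutations, or 100000 resamples for 10 or more horns, two-sided, in SciPy 1.17.1. The scripts were tested on simulated counts, in which the changed genes were more abundant than the protease genes. That test does not show whether a change in genes this rare would be found. Alternatives were DESeq2 1.42.0, limma 3.58.1 (voom), DESeq2-style size factors in edgeR, no filter, Myh11 as a covariate and leaving out each horn. For the slope on Myh11 the adipocyte score was also added as a further covariate.

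Members and gene lists were chosen with earlier results of these data known. The named genes were the members, the genes of the lists, which may be named with their list, and the 10 genes most like the members. Transcript lengths and shared 75-base stretches came from a GENCODE annotation of build GRCm38. Ms4a2 was not analysed here, and a few genes of the lists are not reported here.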

Additional observations from a re-analysis of the deposited data

Results flagged for a closer look

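Cma1 in PBS replicate 7 was 0.74 log2 CPM, with the next PBS horn at -2.04. The gap to the nearest horn was 0.82 of the group's range, above Dixon's critical value of 0.71 for 5 samples. It was the 1 such case among 20 groups of a member checked. For independent, normally distributed samples chance gives about 1 in 20. That rate does not hold here, since 3 PBS horns had no Cma1 read and the proteases were high in the same horns. The other 3 proteases were also highest of the PBS horns in this library, with 19 reads of Cpa3, 22 of Mcpt4 and 33 of Tpsb2, and so were the adipocyte genes, at a score of 5.00.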

How the results depend on the processing

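Of 639 alternative values of a member's fold or slope, 28 changed sign and 1 had an adjusted p under 0.05 (3 were not given by DESeq2). That 1 was the slope of Mcpt4 on Myh11, 0.84 (edgeR adjusted p 0.01) without PBS replicate 10 and HG replicate 12 together, against 0.40 (0.218) with all horns. These 2 horns were chosen after the data had been seen, because they lay off the relation, so this value supports nothing. Slopes of the other proteases were then 0.67 to 0.68 and that of Kit -0.31, with adjusted p-values of 0.111 or more, and 73 features were called. Counts of called features moved most. DESeq2 called 1 in PBS against SHAM, 281 in HG against SHAM, 83 in HG+ORG against SHAM and 162 in HG+ORG against HG, against 0 with edgeR, where 385, 1996, 1754 and 1737 had an unadjusted p under 0.05. In HG against PBS and HG+ORG against PBS both called 0, with 597 and 1079 under 0.05 unadjusted in edgeR. limma called 0 in all 6. For the slope on Myh11, 139 were called, against 1123 with DESeq2, 572 with no group terms, 1223 with a score of 8 other muscle genes, 83 with the adipocyte score, added after the data had been seen, and 65 to 864 without 1 horn. Signs changed in HG+ORG against PBS for Mcpt4, which was -0.01, 0.07 with DESeq2, 0.26 with limma and 0.78 with Myh11 as a covariate. In HG+ORG against HG, Kit was 0.08 with limma, and Cpa3 and Cma1 were 0.12 and 0.43 with Myh11 as a covariate. The causes were not tested.

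Without 1 horn, PBS against SHAM ran from -1.20 to 3.09 for Cma1, -0.67 to 1.77 for Mcpt4, -0.09 to 2.87 for Tpsb2 and -0.31 to 0.61 for Kit. HG+ORG against PBS ran from -0.65 to 2.50 for Cpa3, -0.52 to 4.18 for Cma1, -0.56 to 2.42 for Tpsb2, -0.33 to 2.05 for Mcpt4 and -0.15 to 0.91 for Kit. Kit ran from -0.20 to 1.40 in HG against SHAM, -0.51 to 1.40 in HG against PBS and -0.95 to 0.80 in HG+ORG against HG. In HG against SHAM the proteases kept positive folds, from 2.36 for Mcpt4 to 4.75 for Cma1, with a lowest adjusted p of 0.151 in edgeR. Mcpt4 was removed by the filter without some horns, and those fits gave no value. The correlation with Myh11 did not pass within any group of 6, where r in HG+ORG, HG and SHAM was 0.54, 0.24 and 0.73 for Cpa3, 0.52, 0.49 and -0.07 for Cma1, 0.57, 0.36 and 0.48 for Mcpt4, and 0.46, 0.40 and -0.20 for Tpsb2. Kit's r was 0.15 within SHAM. A prior count of 0.5 in place of 2 moved 4 of 20 mean log2 levels by more than 1 SD, those of the proteases in SHAM. No paired analysis was possible because the replicate numbers run from 1 to 23 and none is shared between groups. At 3 reads as the floor, a horn with no protease read allows up to 0.251 per 1000000 reads. Without HG+ORG replicate 18 Il1rl1 in HG+ORG against HG was -0.60, against 0.94 with it. Folds from limma were smaller than those from edgeR for all 4 proteases in the 3 comparisons with SHAM.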

Other observations

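Il7r, the interleukin-7 receptor of lymphoid cells, stood in the list of other cells that make Kit and had a median of 34 reads in HG+ORG horns and 3.5 in SHAM horns, with 1906 reads in HG+ORG replicate 18. Its log2 fold in HG+ORG against SHAM was 7.06 ± 1.56 (edgeR adjusted p 0.209) with that library and 2.96 ± 0.92 (1) without it, and in HG+ORG against HG 5.16 ± 1.40 (0.270) with it and 1.05 ± 0.84 (0.689) without it. Gata3, a transcription factor of lymphocytes, had a log2 fold of 2.2 ± 0.76 in HG+ORG against SHAM (0.284), and 2.03 ± 0.80 without that library. Of the 14 other mast cell genes 4 had an unadjusted edgeR p under 0.05 with a higher level in HG+ORG than in SHAM, beside 8.09% of all features. All 4 are also made by other immune cells. They were Fcer1g (3.82 ± 0.97), Srgn (3.36 ± 1.02), Il1rl1 (2.57 ± 0.97) and Hpgds (1.38 ± 0.57), with edgeR adjusted p-values of 0.209, 0.226, 0.349 and 0.416. HG+ORG replicate 18, the horn with 122889 reads of the macrophage gene Lyz2, was the highest of the 23 in all 4. Without it, an alternative chosen after the data had been seen, the folds were 1.17 ± 0.56, 0.55 ± 0.62, 1.05 ± 0.85 and 0.66 ± 0.51, each with an adjusted p of 1.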
